A study of Mus musculus with 3 samples.

Results

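Hepatocytes of the high fat diet (HFD) library were ordered along the liver lobule, and the pericentral end of that order was set against the periportal end. Primary hepatocytes had been isolated by collagenase perfusion in a two-step digestion from wild-type (WT) mice after 12 weeks on a 60% high fat diet, and profiled by droplet single-cell RNA sequencing of transcript 3′ ends. Counts are unique molecular identifiers (UMIs), each standing for 1 captured molecule. WT mice on the same 60% diet to which 0.25% hyodeoxycholic acid, a bile acid, was added (HFD_HDCA), and WT mice on a normal diet (ND), gave the other libraries, also after 12 weeks. Each diet had 1 library, so nothing here has a replicate check, and no p-value was computed. The sources used here do not give the number of mice in a library, their sex or the time of day.

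Blood enters the lobule beside the portal vein and leaves through the central vein, and oxygen, nutrients and hormones fall along that path. Hepatocytes near the portal vein are known for gluconeogenesis, urea synthesis and the secretion of plasma proteins. Those near the central vein are known for glutamine synthesis, bile acid synthesis and the cytochrome P450 (Cyp) enzymes of drug metabolism, and Wnt signals from the endothelium of the central vein maintain much of that programme.

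Of 6290 HFD barcodes, 1368 held 500 genes or more with no more than 50% mitochondrial counts, out of 4732 such barcodes among 16918 in the whole series. A zonation score was the sum over Cyp2e1, Oat, Rgn and Cyp2c50 of the natural log of 1 plus counts per 10000, minus the same sum over Cyp2f2, Sds, Hal and Ass1. The 410 barcodes with the highest 30% of scores are called pericentral, the 410 with the lowest 30% periportal, and the 548 between them middle. The cells were thus chosen by their own expression, and genes that vary together with these 8 ordering genes had to separate the zones. All differences between zones are therefore a description. The score is a range and not a pair of cell types: the last pericentral barcode scored 7.411 and the next one outside 7.398, the last periportal one scored -5.83 and the next -5.81, and 74 and 58 barcodes lay within 0.5 of these limits. At the filter, the barcode with the fewest genes inside had 500 and the nearest outside 499, and the highest mitochondrial share inside was 49.6%, with 51.4% the nearest outside.

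The ordering genes are terms of the score, so their separation follows from the rule and is given as a description. Levels are counts summed over a zone and scaled to 1000000 nuclear-encoded counts (CPM). Cyp2e1, an ethanol-metabolising P450, had 10313 CPM in pericentral cells, against 84.3 in periportal cells. Oat, ornithine aminotransferase, had 2208 CPM in pericentral cells and 22 in periportal cells. Cyp2f2, a periportal P450, had 20.3 CPM in pericentral cells and 2384 in periportal cells, and Hal, the histidine ammonia-lyase, had 4.28 and 697 CPM in these zones. The 8 genes were left out of the genes compared in everything that follows. Their counts stayed in the totals used for scaling, as 1.89% of nuclear-encoded counts in pericentral and 0.73% in periportal cells.

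The zones differed in more than the score. Pericentral cells had a median of 2409.5 UMIs and 1071 genes, middle cells 1769.5 UMIs and 822 genes, and periportal cells 2990 UMIs and 1156.5 genes. Mitochondrial genes took 10.1% of all pericentral counts and 13.9% of periportal counts. Markers of hepatocytes were detected in each zone, 10 of 10. The 12 endothelial markers summed to 2.14 CPM in pericentral and 4.79 CPM in periportal cells, against 170 CPM in the middle zone, and 7 of them, Stab1 and Cdh5 among them, were at 0 at both ends. The 11 Kupffer cell markers summed to 0 counts in pericentral cells and 4.79 CPM in periportal cells, against 381 CPM in the middle zone, with Clec4f and Adgre1 at 0 at both ends. Cholangiocyte markers summed to 5.35 CPM in pericentral and 49.8 CPM in periportal cells, all from 2 of the 6 genes, with Krt19, Krt7, Epcam and Cftr at 0 at both ends. Erythroid markers summed to 81.3 CPM (76 counts) in pericentral and 82.4 CPM (86 counts) in periportal cells, against 343 CPM in the middle zone, with Hba-a1, Hba-a2 and Hbb-bt at 0 at both ends. HFD and HFD_HDCA shared 6 barcode sequences and HFD and ND 16, of which 0 and 1 were among the barcodes retained.

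Across the nuclear genome, a minority of genes were zoned by 2-fold. The log2 ratio of a gene is pericentral over periportal CPM with 0.5 counts added to each, and its 95% exact interval covers counting error only. In 4170 genes the counts of pericentral and periportal cells together came to 50 or more, and these are the measured genes. Of them, 167 (4.0%) were higher in pericentral cells by 2-fold or more and 130 (3.12%) were lower by as much, with 45 and 33 past 4-fold. The shares of 4.0% and 3.12% are the background for the counts of every gene list given below. The median log2 ratio was 0.07, and 90% of genes lay between -0.79 (the 5th percentile) and 0.91. Genes with few counts in a zone are part of these lists: 50 of the 167 and 56 of the 130 had under 25 counts in their lower zone, so most of the counts by which they passed the minimum came from the higher zone. The middle zone lay between the ends for 291 of these 297 genes. These genes were picked by their difference between the ends, and middle cells have the scores in between. The order is therefore a description, and the share over all measured genes is not given here. The split between the directions depended on scaling: median-of-ratios scaling moved the median of all genes by -0.11 and gave 135 higher and 164 lower genes. Scaling to all counts gave 194 and 115, and scaling without the ordering genes 173 and 120.

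**Figure D1:**
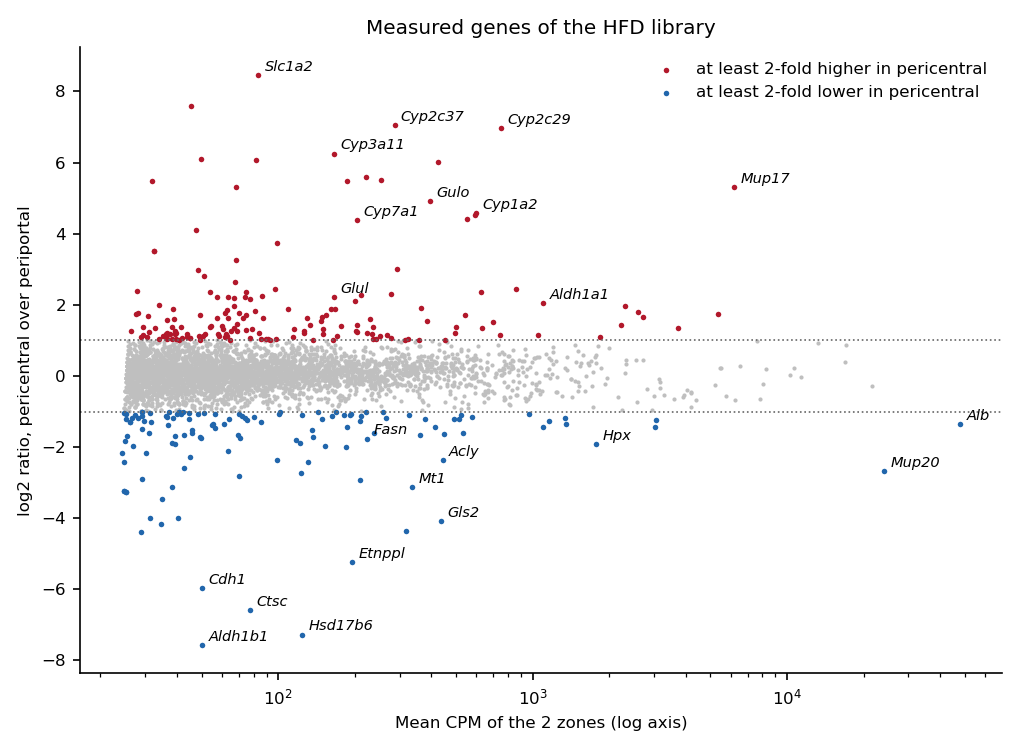
Each point is 1 of the 4170 measured genes of the HFD library, with the mean CPM of the pericentral and periportal zones on a log axis and the log2 ratio, pericentral over periportal, on the vertical axis. Red marks the 167 genes higher in pericentral cells by 2-fold or more, blue the 130 genes lower by as much, and Slc1a2, Rdh9 and Aldh1b1, which had 0 counts in a zone, are placed by the 0.5 counts added.

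Slc1a2, Rdh9 and several cytochrome P450 genes had the highest ratios. Slc1a2, a glutamate transporter of cells around the central vein, had 167 CPM (156 counts) in pericentral cells, 9.89 CPM in middle cells and 0 counts in periportal cells, at least 58.1-fold higher when periportal cells are set to 3 counts. Rdh9, a retinol dehydrogenase family member, had 90.9 CPM in pericentral cells, 13.8 CPM in middle cells and 0 counts in periportal cells, at least 31.6-fold higher on the same floor. In the P450 family, Cyp2c29 had 1492, 208 and 11.5 CPM in pericentral, middle and periportal cells (log2 ratio 6.96, interval 6.21 to 7.98). Cyp3a11, a P450 with a broad range of drug substrates, had 328, 33.6 and 3.83 CPM in the same order (6.25, interval 5.05 to 8.31). Levels thus dropped steeply already between the pericentral and the middle cells.

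The other genes among the 15 highest had diverse roles. Cyp2c37, Cyp2c54 and Cyp2a5 are P450 enzymes with log2 ratios of 7.05, 6.01 and 5.48. Claudin 2 (Cldn2), a pore-forming protein of tight junctions, had 151 pericentral counts against 2 periportal counts (6.08, interval 4.52 to 9.46). Serpina7, thyroxine-binding globulin, had 92 pericentral counts against 1 (6.11, interval 4.17 to 12.0), and Gstm2, a glutathione transferase, 59 against 1 (5.47, interval 3.51 to 11.4). Lect2, a secreted hepatokine, had 435 CPM in pericentral and 8.62 CPM in periportal cells, and the fatty aldehyde dehydrogenase Aldh3a2 had 498 and 10.5 CPM. Fitm1, an endoplasmic reticulum protein that promotes lipid droplet formation, had 125 pericentral counts against 3 (5.32, interval 3.96 to 7.84). Gulo, which catalyses the last step of vitamin C synthesis in mice, had 765 CPM in pericentral cells and 24.9 CPM in periportal cells (4.91). Mup17, a major urinary protein, had 12105 and 304 CPM (5.31).

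The 15 genes with the lowest ratios included dehydrogenases, a protease and a cadherin. Hsd17b6, a retinol and steroid dehydrogenase, had 1 pericentral count against 258 periportal counts, or 1.07 CPM against 247 CPM (log2 ratio -7.27, interval -13.2 to -5.36). Aldh1b1, a mitochondrial aldehyde dehydrogenase, had 0 pericentral counts against 101 CPM in periportal cells, at least 31.3-fold lower. Ctsc, the protease cathepsin C, had 1 pericentral count against 161 (-6.59, interval -12.5 to -4.67), and the epithelial cadherin Cdh1 had 1 against 104 (-5.96, interval -11.9 to -4.03). Etnppl, which breaks down phosphoethanolamine, had 9.63 CPM in pericentral and 381 CPM in periportal cells (-5.23). Hsd17b13, a lipid droplet protein, had 28.9 and 604 CPM (-4.36), and the liver glutaminase Gls2 had 48.1 and 822 CPM (-4.08). The oestrogen receptor gene Esr1 had 3 pericentral counts against 69 (-4.15, interval -6.68 to -2.76). The metallothioneins Mt1 and Mt2, small metal-binding proteins, had log2 ratios of -3.13 and -4.00. Tstd1 had 3 pericentral counts against 62 (-4.00, interval -6.53 to -2.60). Rasgef1b, the Notch target Hes1, the mitochondrial serine carrier Sfxn1 and Zfp750 completed the 15 lowest, between -3.46 and -2.91.

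Cells were next divided into 10 score bins of 136 or 137 barcodes, from bin 1, the most periportal, to bin 10. All 15 highest genes peaked in bin 9 or 10, and 13 of the 15 lowest in bin 1 or 2. They were picked by zones of the same score, so the place of these peaks is a description. The shapes differed among the pericentral genes. Slc1a2 was at 0 CPM in bins 1 to 4, between 3.35 and 28.3 CPM in bins 5 to 9 and at 463 CPM in bin 10. Glul, glutamine synthetase, stayed between 33.4 and 87.9 CPM in bins 1 to 9 and reached 644 CPM in bin 10. In all, 5 barcodes held 55.9% of its 254 pericentral counts, and their part in the level of bin 10 was not tested. Mup17, in contrast, climbed over the whole axis, with 245, 285, 385, 554, 1661, 2954, 5874, 9043, 11927 and 15295 CPM in bins 1 to 10. Gls2, which splits the glutamine that Glul makes, ran the other way, with 812, 922, 729, 700, 360, 276, 156, 90.5, 44.0 and 12.7 CPM. Hsd17b6 was at 288 CPM in bin 2 and at 0 CPM in bins 9 and 10.

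**Figure D2:**
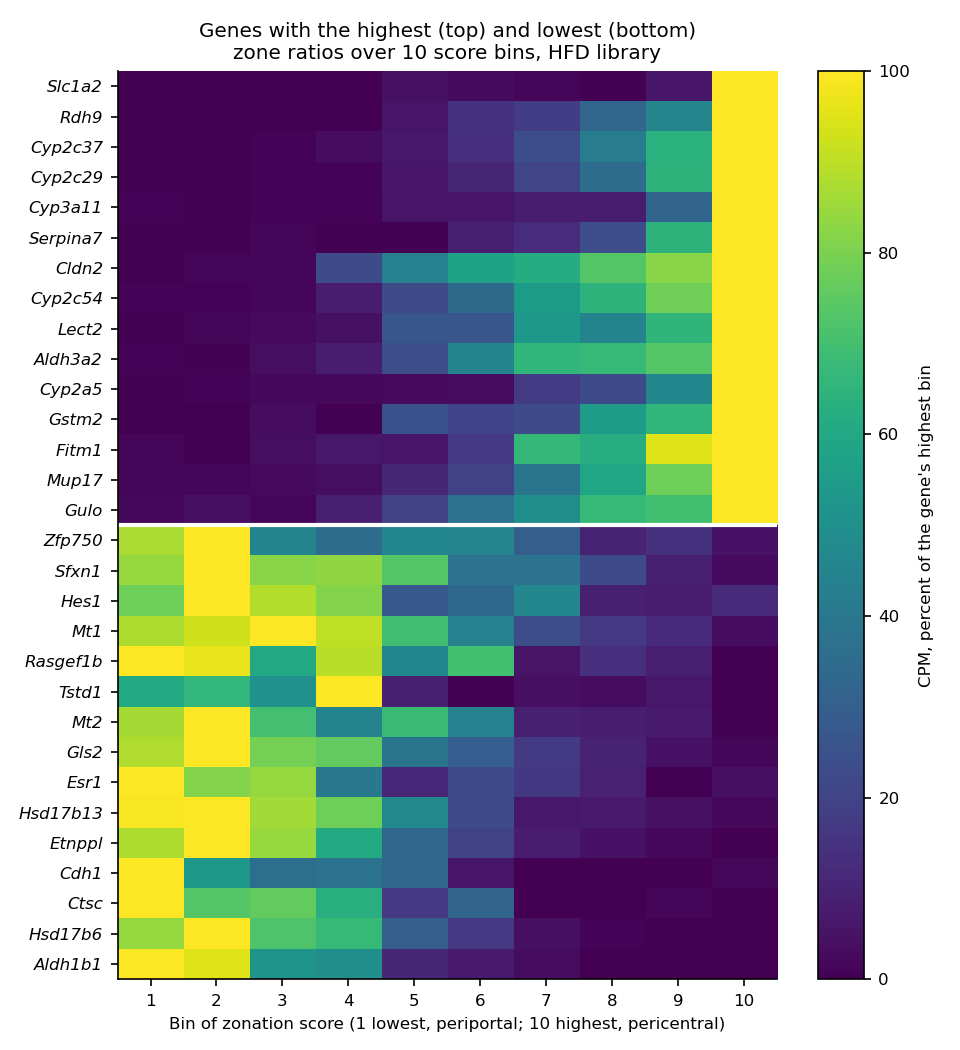
Rows are the 15 genes with the highest (above the white line) and the 15 with the lowest (below it) zone ratios of the HFD library, columns are 10 bins of the zonation score from periportal (1) to pericentral (10), and colour is CPM as a percent of the gene's highest bin. Slc1a2 is bright in bin 10 alone, while Cldn2 and Aldh3a2 are spread over the upper bins, and Gls2 and Hsd17b13 fade out from bin 5 on.

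Glutamine and ammonia genes were split between the ends. Over the list of urea cycle and glutamine genes, 3 of 18 measured members were higher by 2-fold or more in pericentral cells and 2 lower, with a median log2 ratio of -0.26 against 0.07 over all measured genes. Glul had 272 CPM in pericentral cells, 65.3 CPM in middle cells and 58.4 CPM in periportal cells (2.21, interval 1.81 to 2.64). Its pericentral counts were uneven: 254 counts lay in 78 barcodes, and 5 of these barcodes held 55.9% of them, without which the log2 ratio was 1.28. Slc1a2, described above, and Aqp9, a channel for glycerol and urea, at 351 and 71.8 CPM (2.28), were the other higher members. The enzymes of the cycle itself were graded more gently. Cps1, which makes carbamoyl phosphate from ammonia, had 4660 CPM in pericentral and 6848 CPM in periportal cells (-0.56), Arg1, the arginase, had 1216 and 2235 CPM (-0.88), and Asl, argininosuccinate lyase, 230 and 528 CPM (-1.20). Among 56 amino acid breakdown genes the median was 0.01, with 1 higher (Cdo1, cysteine dioxygenase, 1.15) and 7 lower. The lower ones included Uroc1 (-1.64), Amdhd1 (-2.0) and Ftcd (-1.20), which act in histidine breakdown after Hal, and Gldc, of the glycine cleavage system (-1.96).

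Cytochrome P450 genes and targets of Wnt signalling leaned to the pericentral end. In the list of Wnt/beta-catenin targets and components 12 of 26 genes were measured. In 5 of the 12 a zone held under 25 counts, so they passed the count minimum mostly through the other zone. Of the 12 genes, 8 were at least 2-fold higher (median 2.51, interval 0.02 to 5.58). They were Slc1a2, Cldn2, Lect2, Gulo, Glul, the P450 Cyp1a2 at 1154 and 47.9 CPM (4.58), the aryl hydrocarbon receptor Ahr at 89.8 and 12.5 CPM (2.81), and the constitutive androstane receptor Nr1i3 at 95.2 and 20.1 CPM (2.22). Of 25 measured P450 and associated genes 13 were higher and 1 lower (Cyp2a12, -1.07), with a median of 1.04 (interval 0.10 to 2.22). In 6 of the 25 a zone held under 25 counts. The electron donors of the system shared the direction, Por with 345 and 114 CPM (1.60) and Cyb5a with 4117 and 1312 CPM (1.65). Conjugation genes followed less strongly, with 8 of 31 higher, 0 lower and a median of 0.43. Gsta3, a glutathione transferase, had 4029 CPM in pericentral and 1166 CPM in periportal cells (1.79). Among 21 nuclear and xenobiotic receptors 2 were higher, Ahr and Nr1i3, and 1 lower, Esr1, with a median of -0.04. Over all measured genes 4.0% were higher and 3.12% lower. Each of these receptors had few counts in its lower zone: 13 periportal counts for Ahr, 21 for Nr1i3, and 3 pericentral counts for Esr1.

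A short motif of TCF/LEF, the DNA-binding partners of beta-catenin, was searched for in the promoters of the genes at each end. The motif CTTTGA, or TCAAAG on the other strand, was chosen after the values were seen and was sought in the 250 bases before each start in the RefSeq promoter table of build GRCm38.p6. It occurred in 4 of the 13 matched genes among the 15 highest (Slc1a2, Cyp3a11, Lect2 and Cyp2c29), in 3 of the 11 matched among the 15 lowest (Tstd1, Aldh1b1 and Hsd17b13), and in 3797 of 27025 promoters in all, or 14.1%. A match is a run of letters and not a binding site. A pair of promoters from each end are shown to let the windows be read side by side, in lower case from 5′ to 3′ on the gene's strand with each match in capitals. They are Cyp2c29 (chr19:39286835-39287084, plus strand), Cyp3a11 (chr5:145879855-145880104, minus strand), Aldh1b1 (chr4:45798772-45799021, plus strand) and Hsd17b13 (chr5:103977389-103977638, minus strand), all from RefSeq.
Cyp2c29: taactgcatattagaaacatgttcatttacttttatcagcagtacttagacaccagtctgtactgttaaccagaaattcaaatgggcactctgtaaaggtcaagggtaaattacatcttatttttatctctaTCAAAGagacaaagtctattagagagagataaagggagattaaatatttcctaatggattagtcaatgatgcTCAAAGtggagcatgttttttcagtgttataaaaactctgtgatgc
Cyp3a11: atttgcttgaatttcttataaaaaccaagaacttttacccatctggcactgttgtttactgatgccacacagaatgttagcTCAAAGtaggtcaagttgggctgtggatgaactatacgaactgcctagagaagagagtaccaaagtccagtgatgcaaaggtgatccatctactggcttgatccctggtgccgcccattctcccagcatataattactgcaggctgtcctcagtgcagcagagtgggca
Aldh1b1: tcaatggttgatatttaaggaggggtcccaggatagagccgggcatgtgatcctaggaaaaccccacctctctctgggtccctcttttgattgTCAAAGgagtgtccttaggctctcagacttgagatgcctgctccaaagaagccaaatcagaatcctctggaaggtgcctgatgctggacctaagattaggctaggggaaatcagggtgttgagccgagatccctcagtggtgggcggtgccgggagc
Hsd17b13: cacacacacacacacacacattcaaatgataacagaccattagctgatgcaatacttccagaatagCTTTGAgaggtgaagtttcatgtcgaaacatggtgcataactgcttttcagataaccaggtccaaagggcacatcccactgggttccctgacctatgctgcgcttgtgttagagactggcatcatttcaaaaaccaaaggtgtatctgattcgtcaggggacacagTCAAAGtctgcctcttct
The capitals begin 118 and 46 bases before the start in Cyp2c29, 169 bases before it in Cyp3a11, 157 in Aldh1b1, and 184 and 18 in Hsd17b13.

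Several genes of bile acid synthesis were higher at the pericentral end. Of 19 measured genes 6 were higher by 2-fold or more and 0 lower (median 0.61). Cyp7a1, the rate-limiting enzyme of the classical pathway, had 391 CPM in pericentral, 211 CPM in middle and 18.2 CPM in periportal cells (4.39, interval 3.76 to 5.18). In bins 1 to 10 it had 11, 17.3, 26.9, 96.7, 195, 272, 307, 365, 424 and 384 CPM, so it reached high levels earlier on the axis than Slc1a2 or Glul. Cyp27a1, which starts the alternative pathway, had 214 and 86.2 CPM in pericentral and periportal cells (1.31), and Hsd3b7, which acts after either enzyme, 694 and 301 CPM (1.21). Csad (2.37) and Cdo1 (1.15) make taurine, with which mouse bile acids are conjugated. Cyp8b1, which adds the hydroxyl group that yields cholic acid, had 172, 130 and 167 CPM in pericentral, middle and periportal cells, and its ratio between the ends had an interval that included 0 (0.05, interval -0.27 to 0.36). Transporters of bile acids and organic ions were divided, with 4 of 18 higher and 2 lower (median 0.30). Slco1b2, a basolateral uptake carrier, had 3682 CPM in pericentral and 938 CPM in periportal cells (1.97), and Abcc3, a basolateral exporter, 86.6 and 27.8 CPM (1.63). Slc22a7 (-2.16) and Slco2a1 (-1.82), carriers of organic anions and prostaglandins, were the lower pair.

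**Figure D3:**
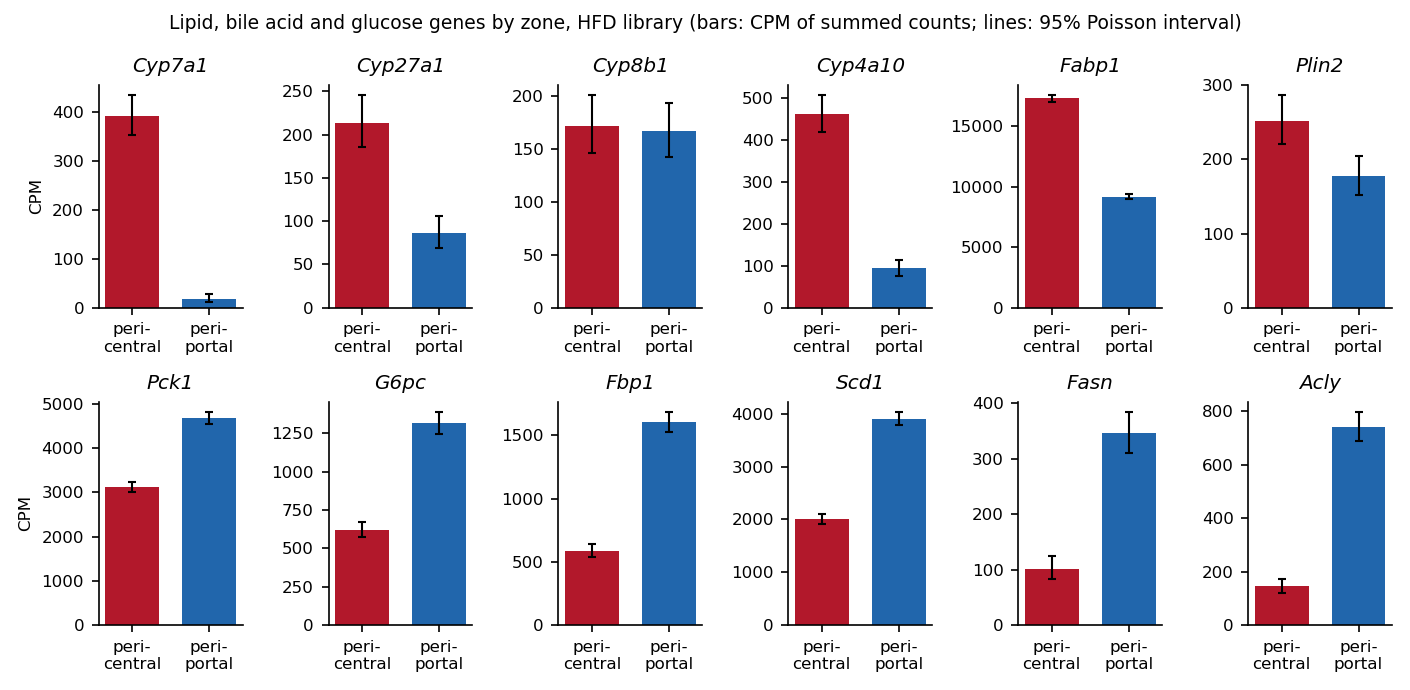
Bars give CPM of the summed counts of the 410 pericentral (red, left) and 410 periportal (blue, right) cells of the HFD library, with exact 95% Poisson intervals as lines that cover counting error only. Cyp7a1 and Cyp4a10 were higher in pericentral cells, Fasn and Acly lower, and the intervals of Cyp8b1 overlap.

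Fatty acid synthesis and fatty acid oxidation genes leaned to opposite ends. Among 25 measured genes of fatty acid and triacylglycerol synthesis 4 were at least 2-fold lower and 1 higher (median -0.58). Acly, which supplies cytosolic acetyl-CoA, had 144 CPM in pericentral, 437 CPM in middle and 741 CPM in periportal cells (-2.36, interval -2.63 to -2.09). Fasn, fatty acid synthase, had 102, 236 and 346 CPM in the same order (-1.76, interval -2.11 to -1.44). Acaca, acetyl-CoA carboxylase (-1.12), and the elongase Elovl6 (-1.06) were the others, while the desaturase Scd1 was just short of 2-fold at 2006 and 3904 CPM (-0.96). Elovl3, an elongase of very long chains, was the exception at 127 and 27.8 CPM (2.18). In the other libraries Fasn had a log2 ratio of -0.70 in HFD_HDCA and -0.15 in ND, Acly -1.33 and -0.64, and Scd1 -0.95 and 0.51. With the HFD score limits used in every library, Fasn had -0.71 in HFD_HDCA and 0.00 in ND, Acly -1.34 and -0.61, and Scd1 -0.93 and 0.63. The differences between libraries were thus small for Scd1 between HFD and HFD_HDCA, and its sign was opposite in ND. These 3 were set side by side after their values were seen.

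Of 34 measured genes of fatty acid oxidation and ketogenesis, 6 were higher in pericentral cells by 2-fold or more and 0 lower (median 0.44). Cyp4a10, a fatty acid omega-hydroxylase and classical target of the receptor Ppara, had 462 CPM in pericentral, 228 CPM in middle and 93.9 CPM in periportal cells (2.29, interval 1.98 to 2.63). Vnn1, a pantetheinase, had 47.1 and 8.62 CPM at the ends (2.39, interval 1.40 to 3.67), and Acot4 (1.60), Eci2 (1.41) and Acaa1b (1.15) are peroxisomal enzymes. Ppara itself had 124 and 78.6 CPM (0.66). Lipid droplet and fatty acid uptake genes held 5 higher and 1 lower of 18 measured (median 0.38). Cd36, a fatty acid translocase, had 86.6 CPM in pericentral and 10.5 CPM in periportal cells (2.98), and G0s2, an inhibitor of triacylglycerol lipase, 79.2 and 29.7 CPM (1.40). The droplet coat gene Plin2 differed less, at 252 and 177 CPM (0.51), and the fatty acid binding protein Fabp1 had 17274 and 9168 CPM (0.91). Hsd17b13, the lower member, is also a droplet protein, so droplet genes were found at both extremes. Cholesterol synthesis and uptake stood near the background, with 1 of 24 measured genes higher (Msmo1, a sterol oxidase, 1.02) and a median of 0.18.

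In gluconeogenesis 4 of 14 measured genes were at least 2-fold lower in pericentral cells and 0 higher. The median was -0.39, with an interval of -1.25 to 0.22 that included 0, and 5 of the 14 had ratios above 0. Among all 4170 measured genes 2377 had ratios above 0. Fbp1, fructose-bisphosphatase, had 587 CPM in pericentral and 1604 CPM in periportal cells (-1.45), G6pc, the glucose-6-phosphatase, 621 and 1316 CPM (-1.08), and the coactivator Ppargc1a 22.5 and 76.6 CPM (-1.75). Pck1, which makes phosphoenolpyruvate, had 3109, 3887 and 4675 CPM in pericentral, middle and periportal cells (-0.59). Glycolysis and glycogen genes did not run opposite to these: 2 of 21 were higher, Ppp1r3c (1.38) and Pfkfb3 (1.13), 3 were lower, Pklr among them at -1.13, and the median was -0.39.

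Secreted plasma proteins leaned to the periportal end. Alb, albumin, had 26991 CPM in pericentral, 46873 CPM in middle and 68814 CPM in periportal cells (-1.35, interval -1.37 to -1.33). Of 63 measured plasma protein and acute phase genes 6 were at least 2-fold lower and 0 higher, 49 had a ratio below 0, and the median was -0.54. Over all 4170 measured genes 1793 had a ratio below 0. Hpx, the haem scavenger hemopexin, had 747 and 2804 CPM (-1.91), and complement C3 763 and 1941 CPM (-1.35). Genes of apolipoproteins and lipoprotein assembly had a median of -0.09 over 23 measured members, with Apoa4 (-2.35) and Apoc2 (-1.59) lower. The 1 higher member, Ces1d (1.11), is a carboxylesterase and not an apolipoprotein.

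Major urinary proteins, carriers of pheromones secreted by the mouse liver, took opposite ends. Of 15 measured genes 9 were higher by 2-fold or more and 1 lower (median 1.08). Mup17 was followed by Mup9 at 1053 and 48.9 CPM (4.42) and Mup11 at 8222 and 2463 CPM (1.74). Mup20, known as darcin, was lower, at 6493 CPM in pericentral, 19371 CPM in middle and 41566 CPM in periportal cells (-2.68, interval -2.72 to -2.64), while Mup3 was close to even at 19428 and 23813 CPM (-0.29). Members of this family, and of the Cyp2c, Cyp3a, Cyp4a, Gstm and Ugt2b families, are near-identical copies of each other, so which copy a read was counted to is uncertain.

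**Figure D4:**
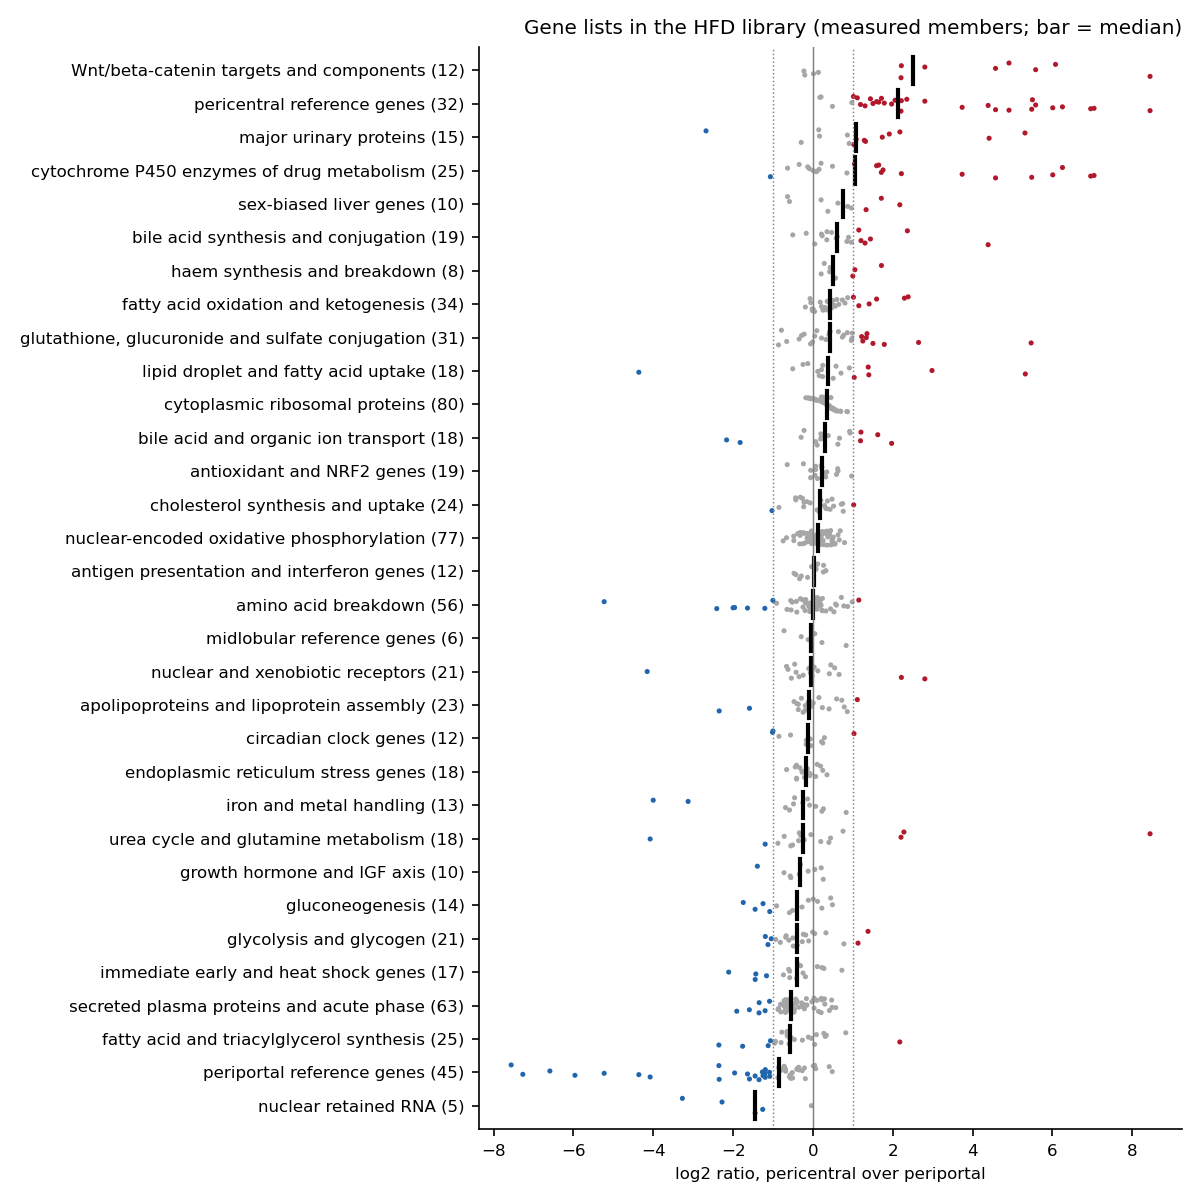
Each row is a gene list with its number of measured members, each point a member's log2 ratio, pericentral over periportal, in the HFD library, and the black bar the median. Red and blue points lie past 2-fold, and points at 0 counts in a zone (Slc1a2 and Aldh1b1) are placed by the 0.5 counts added.

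Lists of known zonation genes, drawn from general knowledge of the lobule and without the ordering genes, lay at the ends named. They were chosen with earlier results of these data known, so their position is a description and not a check of the ordering. Of the pericentral reference genes 32 of 45 were measured, 28 of these were at least 2-fold higher and 0 lower, and the median was 2.13. In 12 of the 32 a zone held under 25 counts. Of the periportal reference genes 45 of 47 were measured, 0 were higher and 21 at least 2-fold lower, with a median of -0.86. In 5 of these 45 a zone held under 25 counts.

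Of 6 genes known from the middle of the lobule 0 were past 2-fold between the ends. Hamp, which encodes the iron hormone hepcidin, had 2311 CPM in pericentral, 2883 CPM in middle and 1297 CPM in periportal cells. Over bins 1 to 10 it had 1264, 1181, 1448, 1611, 2607, 3706, 3920, 2972, 2192 and 1796 CPM, a peak in bins 6 and 7. Igfbp2, an IGF-binding protein, was also highest in the middle zone, at 277, 426 and 301 CPM, and so was Hamp2, at 211, 280 and 180 CPM, although its highest bin was bin 3 at 355 CPM. The other members did not peak there. Mup3 had 19428, 22126 and 23813 CPM in pericentral, middle and periportal cells, and Igfbp1, an IGF-binding protein, 483, 648 and 799 CPM, both highest in periportal cells. Cyp8b1, given above, was lowest in the middle zone. The middle zone held the cells with the fewest UMIs and most of the endothelial and Kupffer markers, and the part of these in the middle peaks was not tested.

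Several RNAs followed the zones together with depth and mitochondrial share. Malat1, a long RNA kept in the nucleus, had 1629 CPM in pericentral, 3144 CPM in middle and 4445 CPM in periportal cells (-1.45). Neat1 had 123 and 295 CPM at the ends (-1.26). Of 5 measured members of the nuclear RNA list 4 were at least 2-fold lower (median -1.45). The others of these were Kcnq1ot1, with 4 pericentral counts against 48, and Chka, with 14 against 78. Under the alternative settings given below, Malat1 ranged from -1.66 to -0.25 and Neat1 from -1.65 to -0.58. Malat1 was under 2-fold in 1 of the 25 settings and Neat1 in 2. The settings include zones drawn within bins of Malat1 level, which lessen the Malat1 difference between zones by design. Immediate early and heat shock genes, taken as 1 list, had 4 of 17 measured members lower and 0 higher (median -0.41). Among them Fos had 222 and 607 CPM (-1.45) and Egr1 357 and 801 CPM (-1.16). Both are immediate early genes, which respond within minutes to tissue handling as well as to hormones. All 13 mitochondrial-encoded genes had lower shares of all counts in pericentral cells, between -0.70 for mt-Co1 and -0.25 for mt-Nd6. Zones drawn within bins of depth gave 157 higher and 124 lower genes. Zones within bins of Malat1 level gave 161 and 97, and those within bins of mitochondrial share 157 and 108, both added after the data were seen. Ribosomal protein genes had a median of 0.35, with 74 of 80 above 0 and 0 past 2-fold. Over all 4170 measured genes 2377 were above 0.

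The same ordering was made in the HFD_HDCA and ND libraries, each with its own highest and lowest 30%. In ND that limit fell at a score of 0, where ties occur, and the pericentral cells had a median score of 3.77, against 10.26 in HFD and 10.04 in HFD_HDCA. Of 290 genes past 2-fold in HFD and measured in HFD_HDCA, 278 (95.9%) had the same sign there, with median absolute log2 ratios of 1.39 in HFD and 1.09 in HFD_HDCA. Of 270 measured in ND, 251 (93.0%) had the same sign, with medians of 1.43 in HFD and 0.84 in ND. None was past 2-fold in the opposite direction in either library. Every library was ordered by the same genes, so genes that vary with these in each library had to share a direction. The agreement is therefore a description. Of all 4154 genes measured in both HFD and HFD_HDCA, 139 were at least 2-fold higher and 86 lower in pericentral cells of HFD_HDCA. Of all 4045 measured in both HFD and ND, 130 were higher and 58 lower in ND. The same-sign share over all these genes is not given here. The genes at least 2-fold higher in both HFD and HFD_HDCA numbered 102, which is 62.6% of the HFD list and 73.4% of the HFD_HDCA list. Those at least 2-fold lower in both numbered 59, or 46.5% and 68.6% of these lists. For HFD and ND the genes in common were 73 higher, or 49.0% and 56.2%, and 38 lower, or 31.4% and 65.5%. With the HFD score limits in every library, 113 ND barcodes were pericentral and 584 periportal, and the medians were 1.42 in HFD and 1.26 in ND.

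**Figure D5:**
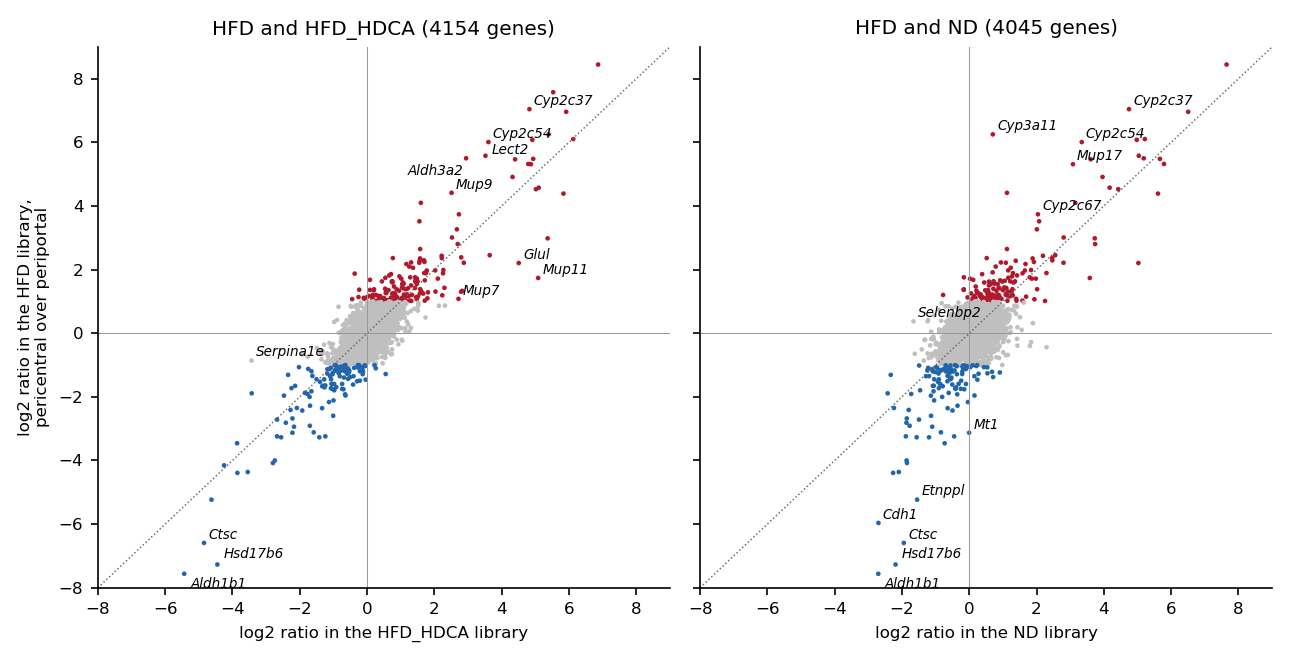
Each point is a gene measured in both libraries, with its log2 ratio, pericentral over periportal, in the HFD library on the vertical axis and in the HFD_HDCA (left) or ND (right) library on the horizontal axis. Red and blue genes are past 2-fold in HFD, the dotted line marks equal ratios, and the genes with the largest differences are named, such as Cyp3a11, at 6.25 in HFD and 0.70 in ND.

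Single genes had different gradients in these libraries, and with 1 library per diet the differences could not be tested. The ratio of Cyp3a11 exceeded that in ND by more than any other gene compared: it had 328 CPM in pericentral and 3.83 CPM in periportal cells of HFD, 443 and 10.3 CPM in HFD_HDCA (5.40), and 5689 and 3498 CPM in ND (0.70, or 1.15 with the HFD score limits). Its periportal level was thus near 0 in both libraries on a high fat diet, while in ND both ends were high. Mt1 was graded the other way, with 68.5 and 603 CPM in HFD (-3.13), 25.4 and 119 CPM in HFD_HDCA (-2.22) and 93.7 and 94.2 CPM in ND (0.00, but -1.75 with the HFD score limits). Mup17 had 12105 CPM in pericentral cells of HFD, 1643 CPM in HFD_HDCA and 670 CPM in ND, with log2 ratios of 5.31, 4.87 and 3.08. Mup11 was steeper in the other libraries, with log2 ratios of 1.74 in HFD, 5.09 in HFD_HDCA and 3.58 in ND, and its periportal levels were 2463 CPM in HFD, 74.7 CPM in HFD_HDCA and 229 CPM in ND. Serpina1e, an alpha-1-antitrypsin copy, had log2 ratios of -0.86 in HFD and -3.43 in HFD_HDCA.

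The zone ratio of Glul was smaller in HFD than in the other libraries. It had 272 CPM in pericentral and 58.4 CPM in periportal cells of HFD, 647 and 28.2 CPM in HFD_HDCA (4.51), and 318 and 9.42 CPM in ND (5.03). With the HFD score limits the ratios were 4.82 in HFD_HDCA and 6.07 in ND. Periportal genes such as Hsd17b6, Ctsc and Etnppl were less zoned in ND, at -2.19, -1.94 and -1.55, than in HFD, at -7.27, -6.59 and -5.23. With the HFD score limits Hsd17b6 had -4.07 and Etnppl -3.12 in ND, closer to the HFD values. Ctsc then had 0 pericentral counts and 121 CPM in periportal cells of ND, so its smaller ratio in ND was not seen under these limits (-6.17, placed by the 0.5 counts added, with an upper interval end of -3.27). Cyp7a1 was steep in each library, at 4.39 in HFD, 5.84 in HFD_HDCA (1 periportal count, interval 3.88 to 11.7) and 5.61 in ND (3 periportal counts, interval 4.23 to 8.13), while its pericentral level was 391 CPM in HFD, 38.1 CPM in HFD_HDCA and 114 CPM in ND.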

How the data were processed

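Per the file headers, Cell Ranger 5.0.0 produced the deposited UMI counts per gene and barcode, on build mm10 per the submitters' processing notes. They came from a 10x Genomics 3′ kit per the labels' protocols. The sources used here do not say how barcodes were chosen. The matrices list 32285 features.

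Barcodes with 500 genes or more and no more than 50% mitochondrial counts were scored and divided as described above. Counts were summed per zone and scaled to nuclear-encoded counts, and log2 ratios had 0.5 counts added, with exact conditional binomial intervals at the 95% level. Levels have exact Poisson intervals, and both kinds of interval cover counting error only. Promoters came from the RefSeq table of GRCm38.p6, the assembly that mm10 names. No doublet caller was run, and doublets were not removed, but 1 alternative left out the 5% deepest barcodes. The HFD barcodes retained held 3408207 counts, with a median of 2460.5 UMIs. Python 3.11.15, numpy 2.4.6, scipy 1.17.1, pandas 2.3.3 and matplotlib 3.10.9 were used, and the scripts were tested on simulated data.

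The members, the 32 gene lists and the rule for named genes were chosen with earlier results of these data known. Named genes were the 15 highest and 15 lowest ratios with at least 50 CPM in the higher zone, up to 4 members per list, 23 fixed genes, and the 6 largest differences from each other library in each direction. Other list members were named after their values were seen.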

Additional observations from a re-analysis of the deposited data

Results flagged for a closer look

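Among the named genes, the ratios of 3 pointed in opposite directions in the HFD and ND libraries, by more than counting error in each and by 2-fold or more in at least 1 of them. Scd1 (-0.96 in HFD and 0.51 in ND), Hamp (0.83 and -0.21) and Cyp7b1 (0.96 and -0.32) also had opposite signs by more than counting error, but were under 2-fold in both libraries. None of these differences could be tested, since each diet had 1 library. Alas1, the rate-limiting enzyme of haem synthesis, had a log2 ratio of 0.5655 in HFD (448 CPM in pericentral and 303 CPM in periportal cells) and -1.019 in ND (26.8 and 55.2 CPM). With the HFD score limits the ND value was -0.58, with an interval that included 0. Selenbp2, a selenium-binding protein, had 0.3744 in HFD (455 and 351 CPM) and -1.657 in ND (105 and 332 CPM), or -2.02 with the HFD score limits. Neat1 had -1.258 in HFD (123 and 295 CPM) and 0.5419 in ND (391 and 269 CPM), which became 0.01 with the HFD score limits.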

How the results depend on the processing

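No paired analysis was possible because each diet had 1 library. The counts of genes past 2-fold depended mainly on the count minimum, by construction, since it sets how many genes are tested. There were 344 higher and 279 lower genes with a minimum of 20 counts, 71 and 54 with 200, and 1675 and 1683 with none. Thinning every barcode to 1000 UMIs left 1946 measured genes, with 111 higher and 63 lower, of which 83 and 52 were among the 167 and 130. Other zone widths, barcode filters, scalings and scores kept both counts within 1.5 times. All 99 named genes past 2-fold kept their sign in all 25 settings, and 82 stayed past 2-fold in all of them. Of the ratios of named genes under the alternatives, 3227 lay within the counting interval of the reported value and 348 outside it, and none past 2-fold changed sign. The zones within bins of Malat1 and of mitochondrial share, the score per nuclear-encoded counts and the ratios without the 5 barcodes richest in a gene were chosen after seeing the data. Depth limits the genes with under 25 counts in a zone most, as the width of their intervals shows.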

Other observations

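Further gene groups of the HFD library are given by their counts, against 4.0% of all measured genes higher and 3.12% lower. Haem synthesis and breakdown had 3 of 8 measured genes at least 2-fold higher in pericentral cells and 0 lower (median log2 ratio 0.50). They were Blvrb, a biliverdin reductase (114 CPM in pericentral and 34.5 CPM in periportal cells, 1.72), Cpox (1.05) and Alad (1.0). Cpox fell under 2-fold in 4 of the 25 settings and Alad in 9. Iron and metal handling had 0 of 13 higher and 2 lower, both metallothioneins (median -0.25). Of 10 sex-biased liver genes 3 were higher, Elovl3, Cyp2d9 (834 and 254 CPM, 1.71) and Hsd3b5 (165 and 65.1 CPM, 1.33), with a median of 0.75. The growth hormone and IGF axis had 0 of 10 higher and 1 lower, the insulin receptor substrate Irs2 (29.9 and 79.5 CPM, -1.39), with a median of -0.33. Of 12 clock genes 1 was higher, Usp2 (1.03), and 2 lower, Noct (-1.01) and Rgs16 (-1.0), with a median of -0.12. These clock genes lay close to 2-fold: Usp2 fell under it in 15 of the 25 settings, Noct in 11 and Rgs16 in 8.

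No gene passed 2-fold in either direction among 19 antioxidant and NRF2 genes (median 0.22), 18 endoplasmic reticulum stress genes (-0.17), 12 antigen presentation and interferon genes (0.02) and 77 nuclear-encoded genes of oxidative phosphorylation (0.12). The last group ranged from Ndufs1 at 70.6 CPM in pericentral and 119 CPM in periportal cells (-0.75) to Ndufb3 at 409 and 236 CPM (0.79). Hamp, highest in the middle zone of HFD, had a log2 ratio of 0.83 between the ends in HFD, -0.85 in HFD_HDCA and -0.21 in ND, or -0.81 in HFD_HDCA and -1.11 in ND with the HFD score limits.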
